A study of Mus musculus with 15 samples.

Results

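The ubiquitin-specific proteases (Usp genes) were described as a family in the cortex of mice given high-frequency head impact (HF-HI) 1 month earlier, a paradigm in which anesthetized animals received many mild impacts over consecutive days. The members were all listed transcripts of protein-coding type whose gene name in the GENCODE M21 annotation of GRCm38 (mm10) is Usp followed by a digit, which gave 52 transcripts of 39 genes among 10370 listed transcripts. A further Usp transcript, a nonsense-mediated decay form of Usp7, was listed and is described beside the coding ones. The groups were 7 Sham and 8 HF-HI libraries of total RNA from dissected cortex. All came from male C57BL/6 mice labelled as 12 weeks old, with no transgene or drug named in the labels, and Sham was the control procedure without impacts, under the same anesthesia. The labels number the libraries within each group and do not say how mice relate to libraries, so p-values measure the spread between these libraries, which may be technical. In whole cortex, fewer cells of a type and less RNA per cell cannot be told apart.

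Ubiquitin is a small protein that is attached to other proteins through an E1, E2 and E3 enzyme cascade and marks them for the proteasome, for endocytosis or for changed activity. Usp enzymes are cysteine proteases that cut ubiquitin off again, and they form the largest family of deubiquitinases. In neurons, members of the family act at the proteasome, on endosomes that sort surface receptors, on histones and on mitochondria. Usp6nl carries a name of the same form but encodes a Rab GTPase-activating protein rather than a protease, and it was kept because the name places it among the members.

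At the adjusted threshold of 0.1, 0 of the 10370 listed transcripts passed in the comparison of HF-HI with Sham, so no Usp transcript did. No Usp transcript had groups that did not overlap. At an unadjusted p under 0.05, 5 of the 52 transcripts (9.62%) were called, against 8.83% of all listed transcripts, so the share was near the background. Of the 5, 3 were higher in HF-HI (a coding transcript of Usp7, Usp2 and Usp54) against a background of 4.94%, and 2 were lower (the other coding transcript of Usp7 and a transcript of Usp33) against 3.9%. Of all transcripts, 0.154% had groups that did not overlap. The smallest adjusted p was 0.426 among the members and 0.206 among all transcripts (limma, Benjamini-Hochberg over all 10370). Voom on the recovered reads of each transcript called 7 members (13.5%) at an unadjusted p under 0.05, against 8.47% of all transcripts, and 0 at the adjusted threshold.

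The values are normalized counts, recovered by inverting the variance-stabilized (VSD) values that the authors deposited, and the tests ran on the VSD scale itself. VSD is a log2 scale that compresses low counts, so a VSD difference understates a log2 ratio of normalized counts, which is given beside it. Of the 52 members, 24 had a VSD difference above 0 and 28 below 0, with a median of −0.0043 against −0.0013 over all transcripts. Log2 ratios of the group means ranged from −0.77 to 0.50. The members lay on 16 chromosomes, 4 of them on the X. No member was at 0 in any library, and the lowest recovered count of any was 21, for Usp7 ENSMUST00000161046. Recovered counts are the authors' estimates, in which reads that fit several transcripts are divided.

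**Figure D1:**
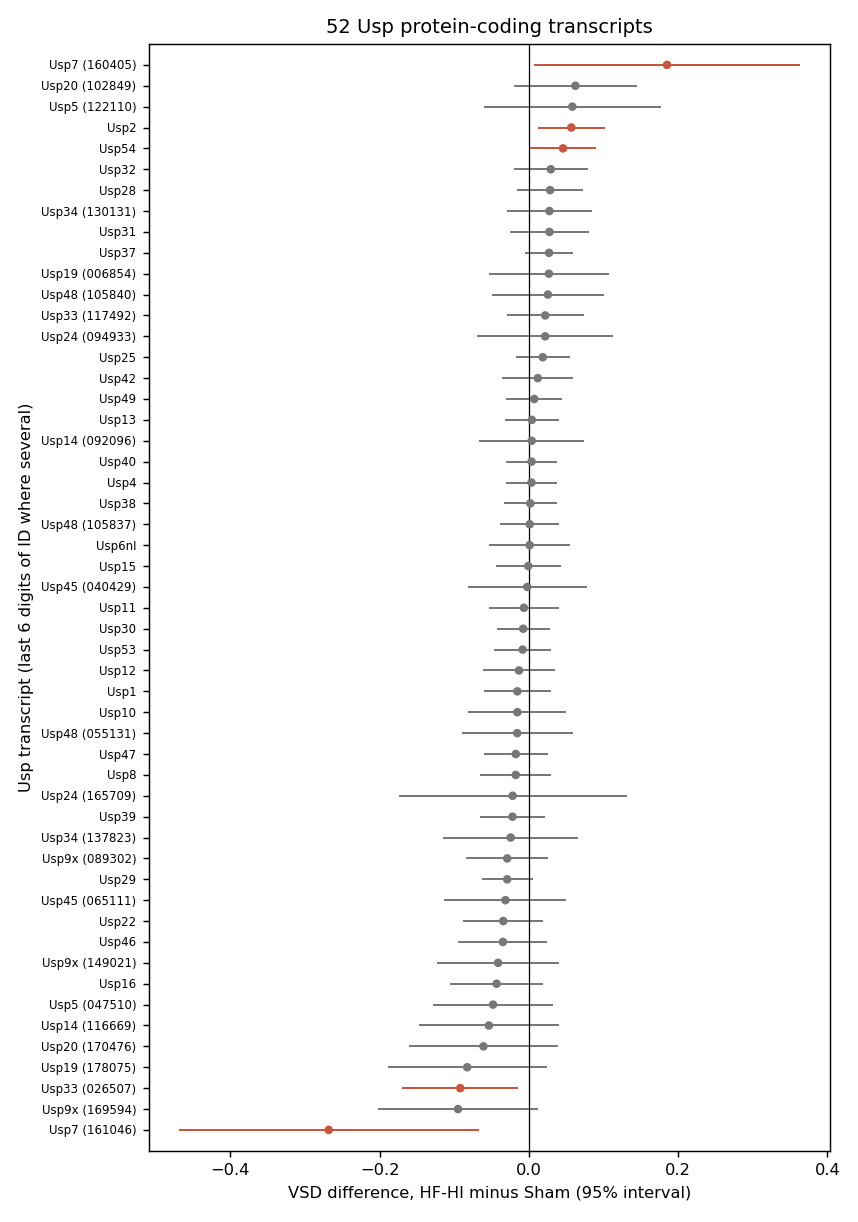
VSD difference (log2 scale, HF-HI minus Sham) of each of the 52 Usp transcripts with its 95% interval from limma, over 7 Sham and 8 HF-HI libraries, with the 5 transcripts at an unadjusted p under 0.05 in red. Most differences sit close to 0, and the coding transcripts of Usp7 lie at both ends.

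Usp7, also called HAUSP, is a nuclear deubiquitinase best known for removing ubiquitin from Mdm2 and its partners. Of its 13 transcripts in the annotation 3 were listed, all on the minus strand of chromosome 16. The first, ENSMUST00000161046 (chr16:8690146-8738342), and the second, ENSMUST00000160405 (chr16:8689595-8792308), are protein coding and begin translation in different exons. The start exons are shown because they are coding sequence that tells these transcripts apart, from the start codon (capitals) to the end of the exon, on the minus strand of GRCm38.
Usp7 start exon of ENSMUST00000161046, chr16:8738204-8738285: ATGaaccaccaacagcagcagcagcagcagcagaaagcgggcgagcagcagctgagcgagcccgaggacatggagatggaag
Usp7 start exon of ENSMUST00000160405, chr16:8756816-8757017: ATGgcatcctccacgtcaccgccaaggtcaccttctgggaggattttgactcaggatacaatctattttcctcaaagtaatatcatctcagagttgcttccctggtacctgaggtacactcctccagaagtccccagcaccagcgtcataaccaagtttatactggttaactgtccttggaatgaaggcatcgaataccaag

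The third, ENSMUST00000160326 (chr16:8689600-8738420), is annotated as a nonsense-mediated decay transcript. It lacks 139 bases at the end of an exon that both coding transcripts hold whole, shown here in capitals on the minus strand.
Usp7 exon shortened in ENSMUST00000160326, chr16:8711994-8712192: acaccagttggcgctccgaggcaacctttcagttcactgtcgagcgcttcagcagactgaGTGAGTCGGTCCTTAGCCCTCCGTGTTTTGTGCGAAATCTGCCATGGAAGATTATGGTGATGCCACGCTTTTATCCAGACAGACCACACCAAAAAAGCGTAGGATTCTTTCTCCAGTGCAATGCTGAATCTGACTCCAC
The stretches shown are only a part of the differences, and 3725 bases are common to all 3 transcripts. ENSMUST00000160405 holds 881 bases that ENSMUST00000161046 lacks, and ENSMUST00000160326 holds 624 that ENSMUST00000161046 lacks. ENSMUST00000161046 has 0 bases that neither of the others holds, ENSMUST00000160405 has 335 and ENSMUST00000160326 has 78. The share of reads given to each therefore rests on the authors' estimates for reads that fit several transcripts.

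ENSMUST00000161046 had the most negative difference of all members. Its normalized counts ran from 349.8 to 509 in Sham (median 489.5), against 25.8 to 437 in HF-HI (median 296). The 8 HF-HI values were all under the Sham median, and 4 were under the whole Sham range. The mean was 451 ± 62.1 (SD, n = 7) in Sham and 264 ± 152 (SD, n = 8) in HF-HI, a log2 ratio of −0.77. The VSD difference was −0.27 (SE 0.094, limma unadjusted p = 0.0117, adjusted p = 0.426), and the exact two-sided permutation p over the 6435 splits was 0.0137. The permutation ran on the same values as limma, and the members were chosen with earlier results of these data known. It is therefore no separate support. The lowest values were 25.8 in HF-HI replicate 6, 132 in HF-HI replicate 3 and 147 in HF-HI replicate 8, while HF-HI replicates 1, 2, 4 and 7 were within the Sham range. The unadjusted call held in every alternative that fitted this transcript, each library left out in turn included, with an adjusted p between 0.348 and 0.840.

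ENSMUST00000160405 went the other way. Its normalized counts ran from 254 to 795 in Sham (median 436), against 314 to 922 in HF-HI (median 697). The ranges overlapped widely, although 7 of 8 HF-HI libraries were above the Sham median, and Sham replicate 1 was higher than 6 of the 8 HF-HI libraries. The mean was 480.3 ± 172 (SD, n = 7) in Sham and 677 ± 187 (SD, n = 8) in HF-HI, a log2 ratio of 0.50. The VSD difference was 0.19 (limma unadjusted p = 0.0415, adjusted p = 0.554), and the exact two-sided permutation p was 0.0608. This call was lost when any of 9 libraries was left out (HF-HI replicates 2, 3, 6, 7 and 8, Sham replicates 2, 5, 6 and 7), which left a VSD difference of 0.14 to 0.18. With depth as a covariate it was lost at a VSD difference of 0.18, without the 3 shallowest libraries (HF-HI replicates 2, 4 and 7) at 0.19, and in voom at a log2 difference of 0.52 (unadjusted p = 0.0524).

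The decay transcript ENSMUST00000160326 had the widest Sham range of the 3, from 51.2 in Sham replicate 1 to 630.4 (median 546), and in HF-HI it ran from 189.9 to 621 (median 394). Its means of 451 ± 199 (SD, n = 7) and 388 ± 163 (SD, n = 8) differed by less than the spread (VSD difference −0.05, limma unadjusted p = 0.668, adjusted p = 0.928, exact two-sided permutation p = 0.706). Without Sham replicate 1 the VSD difference was −0.15 (limma unadjusted p = 0.0806, adjusted p = 0.698), and with depth as a covariate it was 0.03.

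Summed over the 3 transcripts, Usp7 was close to level between the groups. The sum ran from 1267 to 1457 normalized counts in Sham, against 1239 to 1399 in HF-HI. Of the 8 HF-HI sums, 7 fell within the Sham range, and that of HF-HI replicate 2 lay below it. The log2 difference of the sum was −0.05 (95% interval −0.13 to 0.02, voom unadjusted p = 0.127, adjusted p = 0.682), and an exact two-sided permutation of log2 sums gave p = 0.111. Of the sum, ENSMUST00000161046 took 32.6% ± 3.73 in Sham and 19.9% ± 11.6 in HF-HI (SD, n = 7 and n = 8, exact two-sided permutation p = 0.0180). ENSMUST00000160405 took 35.1% ± 13.6 and 51.2% ± 14.6 (exact permutation p = 0.0490), and ENSMUST00000160326 took 32.3% ± 13.8 and 28.9% ± 11.5 (exact permutation p = 0.602). The shares of a library sum to a whole and are not independent, and these permutation p-values are not adjusted for the 7 run on Usp7. In HF-HI replicate 6 the shares of these transcripts were 1.98% and 66.1%, and in Sham replicate 1 the decay transcript took 3.81%.

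**Figure D2:**
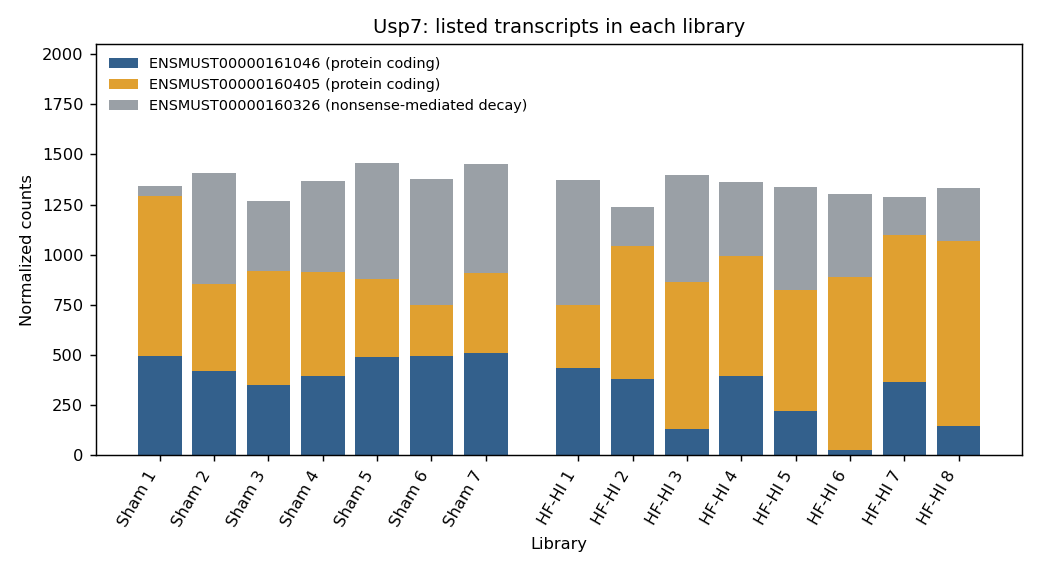
Normalized counts of the 3 listed Usp7 transcripts stacked in each of the 7 Sham and 8 HF-HI libraries. The stack heights stay between 1239 and 1457, while the division among the transcripts varies from library to library in both groups.

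Nuclear and chromatin enzymes other than Usp7 gave no call in limma on all libraries. With Usp7 included, this role held 13 transcripts of 10 genes, with a median VSD difference of −0.01. Usp22, the deubiquitinase of the SAGA complex that acts on histone H2B, ran from 1557 to 1840 in Sham, against 1468 to 1718 in HF-HI, with 7 of 8 HF-HI libraries below the Sham median (limma unadjusted p = 0.183, adjusted p = 0.718). Usp16, an enzyme that removes ubiquitin from histone H2A, ran from 111 to 179 in Sham (median 145), against 81.3 to 166 in HF-HI (median 123). It was not called (VSD difference −0.04, limma unadjusted p = 0.155, adjusted p = 0.697). It was called with depth as a covariate (VSD difference −0.10), without the 3 shallowest libraries (−0.08) and in voom (log2 difference −0.31, unadjusted p = 0.0460, adjusted p = 0.572). Usp11 and the 3 transcripts of Usp48 had unadjusted p-values from 0.475 to 0.947.

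Among enzymes of endosomes, receptors and synapses, 13 transcripts of 9 genes, 1 was called higher (Usp2), against 4.94% of all transcripts. In the same role 1 was called lower (Usp33), against 3.9%. Usp2 is an enzyme whose transcription follows the circadian clock in many tissues. Its transcript ENSMUST00000034508 (chr9:44067021-44095627) ran from 168 to 228 normalized counts in Sham (median 204), against 192 to 284 in HF-HI (median 238). In 7 of 8 HF-HI libraries it was above the Sham median, and in 5 it was above every Sham library. The mean was 199.96 ± 21.9 (SD, n = 7) in Sham and 236 ± 26.5 (SD, n = 8) in HF-HI, a log2 ratio of 0.24 (VSD difference 0.06, limma unadjusted p = 0.0142, adjusted p = 0.448). The call held without any single library and was lost with depth as a covariate, where the VSD difference was 0.05.

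Usp33 acts on surface receptors, among them the Slit receptor Robo1. Its listed transcripts, ENSMUST00000026507 (chr3:152346478-152393612) and ENSMUST00000117492 (chr3:152346478-152393333), share 3874 bases. ENSMUST00000026507 also holds 279 bases, outside its coding sequence, that ENSMUST00000117492 lacks. The transcripts differ in coding sequence by 12 bases at the end of an exon, which the more abundant ENSMUST00000117492 holds. They are shown in capitals on the plus strand of GRCm38 because reads over this stretch also tell the transcripts apart.
Usp33 exon lengthened in ENSMUST00000117492, chr3:152389741-152389843: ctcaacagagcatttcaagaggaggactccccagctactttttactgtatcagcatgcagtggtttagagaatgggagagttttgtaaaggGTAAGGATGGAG
ENSMUST00000026507 ran from 155 to 234 normalized counts in Sham (median 199), against 85.9 to 207 in HF-HI (median 144). In HF-HI, 7 of 8 libraries were below the Sham median and 4 were below every Sham library. The mean was 198 ± 25.2 (SD, n = 7) in Sham and 149 ± 46.2 (SD, n = 8) in HF-HI, a log2 ratio of −0.40 (VSD difference −0.09, limma unadjusted p = 0.0219, adjusted p = 0.495). ENSMUST00000117492 had 1341 ± 72.8 in Sham and 1381 ± 88.3 in HF-HI (limma unadjusted p = 0.362, adjusted p = 0.822), and the sum of both differed by −0.01 on the log2 scale (95% interval −0.08 to 0.06). The call of ENSMUST00000026507 was lost with depth as a covariate, where the VSD difference was −0.03 (limma unadjusted p = 0.395, adjusted p = 0.982), and without the 3 shallowest libraries, where it was −0.05. In voom it was lost at a log2 difference of −0.29 (unadjusted p = 0.0876, adjusted p = 0.666).

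Usp9x, a large X-linked enzyme required for brain development, had 3 listed transcripts. The long form ENSMUST00000089302 carried nearly all of its counts, from 6084 to 6610 in Sham, against 5817 to 6682 in HF-HI (limma unadjusted p = 0.265, adjusted p = 0.772). The shorter ENSMUST00000169594 (chrX:13071498-13123449) ran from 157 to 311 in Sham (median 244), against 83.1 to 234 in HF-HI (median 173). All 8 HF-HI libraries of the shorter form were below the Sham median and 3 were below every Sham library, with limma unadjusted p = 0.0739 and adjusted p = 0.598. Leaving out Sham replicate 2, Sham replicate 6, HF-HI replicate 1 or HF-HI replicate 3 made it a call, with VSD differences of −0.11. With depth as a covariate the VSD difference was −0.03 (limma unadjusted p = 0.569, adjusted p = 0.990), and voom gave an unadjusted p of 0.259.

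Of the other members in this group, Usp46 and Usp12 are related enzymes that are activated by Wdr48, and Usp46 acts on AMPA receptors among other substrates. Usp46 ran from 983 to 1199 in Sham (median 1139.9), against 881 to 1124 in HF-HI (median 1064), with all 8 HF-HI libraries below the Sham median (limma unadjusted p = 0.224, adjusted p = 0.749). Usp12 had 583 ± 51.8 in Sham and 568.2 ± 40.4 in HF-HI (limma unadjusted p = 0.561, adjusted p = 0.901). Usp8, which sorts receptors at endosomes, had 495 ± 25.9 and 479 ± 49.8 (limma unadjusted p = 0.433, adjusted p = 0.854). The transcripts of Usp20 had log2 ratios of opposite sign, 0.28 for ENSMUST00000102849 and −0.24 for ENSMUST00000170476, with 4964 bases in common, and neither was called in limma on all libraries. Both were called in voom (log2 differences 0.35 and −0.40, adjusted p = 0.567 for each) and without the 3 shallowest libraries (VSD differences 0.11 and −0.12), and ENSMUST00000170476 also without HF-HI replicate 2.

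The enzymes of the proteasome and of ubiquitin recycling (5 transcripts of 3 genes) gave no call in limma on all libraries, with a median VSD difference of 0.0038. Usp14 is bound to the proteasome and trims chains from its substrates. Its transcript ENSMUST00000116669 ran from 363 to 515 in Sham (median 491), against 290 to 597 in HF-HI (median 397), and ENSMUST00000092096 was nearly equal in mean, at 485 ± 77.9 and 487 ± 49.6. Over all libraries ENSMUST00000116669 had a VSD difference of −0.05 (limma unadjusted p = 0.235, adjusted p = 0.756). Without the 3 shallowest libraries it was called, at a VSD difference of −0.09. Usp5 takes apart unanchored ubiquitin chains. Its longer transcript ENSMUST00000047510 ran from 851 to 1121 in Sham (median 1003), against 783 to 1171 in HF-HI (median 896), with limma unadjusted p = 0.216 and adjusted p = 0.740. The shorter ENSMUST00000122110, which lacks 69 coding bases of the longer, had a log2 ratio of 0.24 against −0.10 for the longer one and was not called (limma unadjusted p = 0.307, adjusted p = 0.795). The longer Usp5 transcript was called only without HF-HI replicate 2, at a VSD difference of −0.07.

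The members of mitochondria and the endoplasmic reticulum (3 transcripts of 2 genes) and of Wnt, TGF-beta and other signalling (6 transcripts of 5 genes) gave no call. Usp30, the enzyme of the mitochondrial outer membrane that opposes Parkin, had 282 ± 18.9 in Sham and 277 ± 21.5 in HF-HI (limma unadjusted p = 0.645, adjusted p = 0.922). In the signalling group log2 ratios lay between −0.04 and 0.10.

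Usp54 was called higher among the 12 transcripts of 10 genes to which no role was assigned, against 4.94% of all transcripts. ENSMUST00000035340 (chr14:20548912-20618354) ran from 412 to 503 normalized counts in Sham (median 448), against 417 to 557 in HF-HI (median 503). In 7 of 8 HF-HI libraries it was above the Sham median and in 4 above every Sham library. The mean was 450.4 ± 27.9 (SD, n = 7) in Sham and 495 ± 43.6 (SD, n = 8) in HF-HI, a log2 ratio of 0.14 (VSD difference 0.05, limma unadjusted p = 0.0395, adjusted p = 0.540). The call was lost when any of 10 libraries was left out (HF-HI replicates 2, 3, 4, 7 and 8, Sham replicates 1, 4, 5, 6 and 7), at VSD differences from 0.04 to 0.05. It was also lost with depth as a covariate, where the VSD difference was 0.02 (limma unadjusted p = 0.471, adjusted p = 0.984), and without the 3 shallowest libraries, where it was 0.03. Usp29, an imprinted gene of the Peg3 domain, was below the Sham median in all 8 HF-HI libraries, with 191 ± 14.6 in Sham and 174 ± 14.2 in HF-HI (limma unadjusted p = 0.0794, adjusted p = 0.604). It was called in voom (log2 difference −0.16, adjusted p = 0.543), without the 3 shallowest libraries, and without Sham replicate 2 or HF-HI replicate 7.

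**Figure D3:**
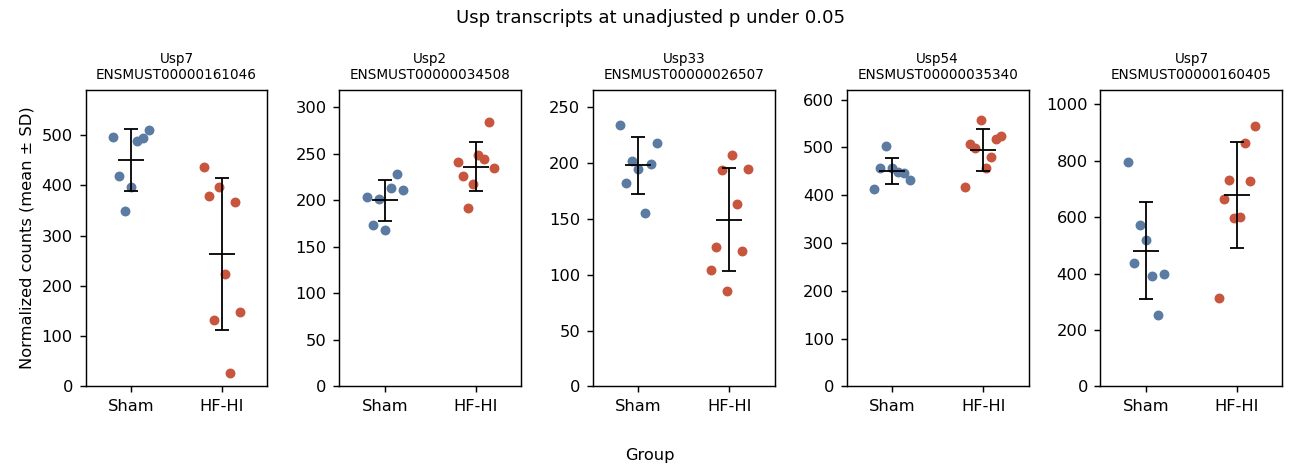
Normalized counts of the 5 Usp transcripts at an unadjusted p under 0.05 in each Sham (blue, n = 7) and HF-HI (red, n = 8) library, with the mean and SD as black bars, each panel on its own axis from 0. Points of the groups overlap in all 5 panels, and the HF-HI spread of ENSMUST00000161046 (SD 152) exceeds that of Sham (SD 62.1).

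Summed per gene over all listed transcripts, 3 of 39 Usp genes (7.69%) were called at an unadjusted p under 0.05 in voom, against 9.44% of the 7742 genes tested, and none passed the adjusted threshold, which 0.0129% of all genes passed. They were Usp2 (log2 difference 0.23), Usp54 (0.13) and Usp29 (−0.15), each with a single listed transcript, with adjusted p-values of 0.404, 0.489 and 0.489. The log2 differences of the 39 genes ran from −0.28 (Usp16, 95% interval −0.57 to 0.02) to 0.23. For 33 genes the whole 95% interval lay within ±0.25 on the log2 scale, and for 38 within ±0.5. Neither Usp7 nor Usp33 was called as a gene.

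Transcripts of genes with several listed forms varied more between libraries than those of genes with 1. For the 28 genes with a single listed transcript, the median coefficient of variation was 6.39% in Sham and 8.18% in HF-HI. For the 25 transcripts of the 11 other genes, with the decay form of Usp7 among them, it was 14.8% and 23.3%, at a median counting error of 4.67% and 6.15%. The counting error takes the estimated counts as whole reads and leaves out the division of shared reads among transcripts. The sums over the transcripts of these 11 genes returned to 4.76% and 6.65%. The sum varied less than each of its transcripts in 10 of the 11 genes in Sham and in all 11 in HF-HI. For Usp7 the sum varied by 4.76% in Sham and 3.88% in HF-HI, while its transcripts varied by 13.8% to 44.2% in Sham and by 27.6% to 57.5% in HF-HI. How far the estimation of transcript counts contributed was not tested.

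**Figure D4:**
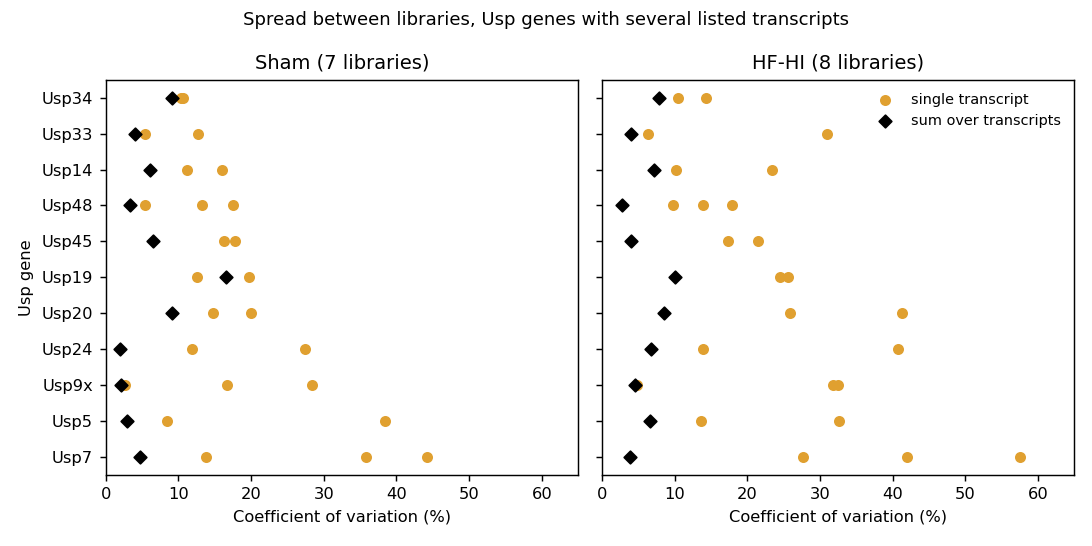
Coefficient of variation of normalized counts (percent) over the 7 Sham (left) and 8 HF-HI (right) libraries for each listed transcript (orange) and for the sum over transcripts (black) of the 11 Usp genes with several listed transcripts. The sums lie left of every transcript in 10 genes in Sham and in all 11 in HF-HI, and the Usp7 transcripts reach 57.5%.

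In level per kb of transcript, the members spanned from 529 normalized counts per kb for Usp9x ENSMUST00000089302 to 24.3 for Usp49, an enzyme that acts on histone H2B. The long Usp9x form was above the next member in every Sham library, at 536 ± 14.1 in Sham and 523 ± 25.3 in HF-HI. It was followed by Usp22 with 383 ± 25.0 and 367 ± 18.6, Usp33 ENSMUST00000117492 with 345 ± 18.7 and 355 ± 22.7, and Usp5 ENSMUST00000047510 with 314 ± 26.4 and 293 ± 39.8, and each of these 3 overlapped with the next in level in Sham. At the low end stood Usp6nl with 33.6 ± 4.1 in Sham and 33.7 ± 4.7 in HF-HI, Usp24 ENSMUST00000165709 with 32.3 ± 8.8 and 31.2 ± 12.7, and Usp49. Along the whole order only 7 members were above the next in every Sham library. The median of the members was 72.2 normalized counts per kb against 96.0 for all listed protein-coding transcripts, and their median length was 4686.5 bases against 3755. The members together held 0.452% to 0.468% of the listed reads in Sham and 0.451% to 0.478% in HF-HI.

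**Figure D5:**
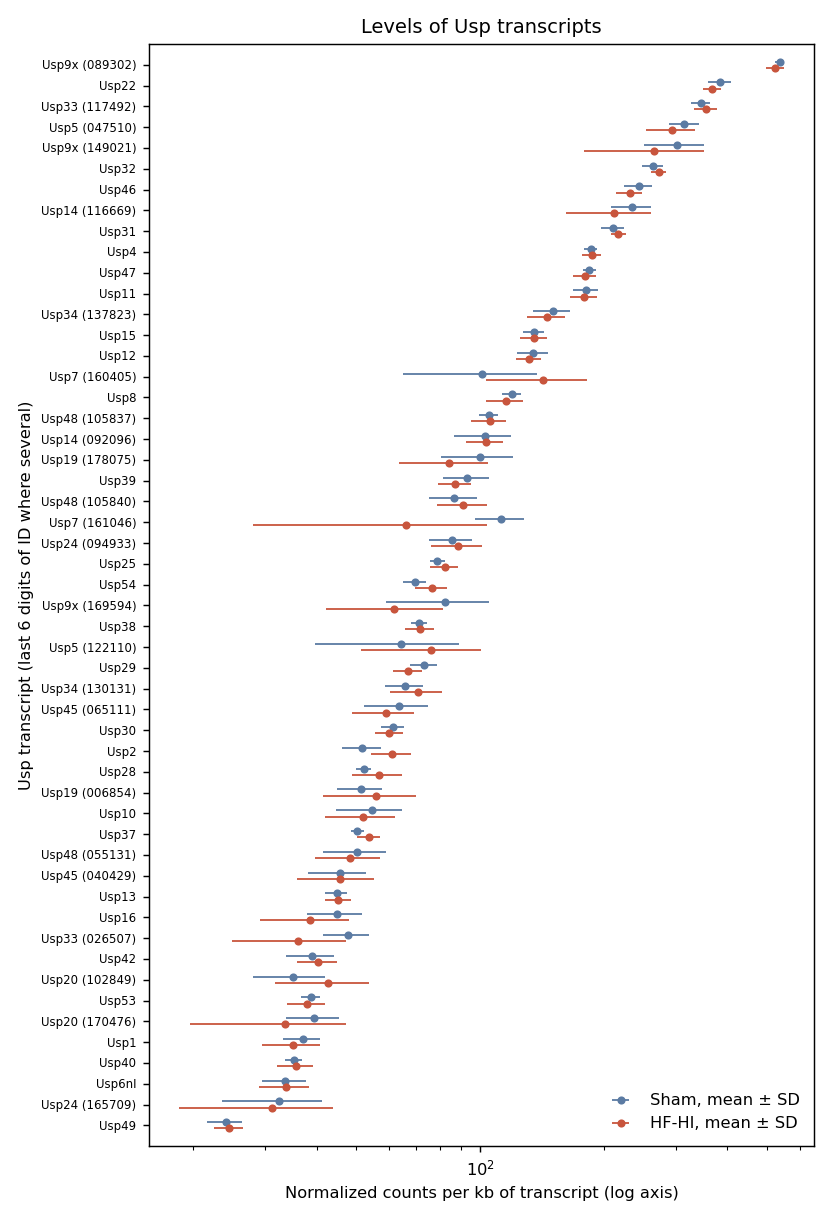
Normalized counts per kb of transcript (log axis) of each of the 52 Usp transcripts in Sham (blue, n = 7) and HF-HI (red, n = 8), as mean ± SD. The order runs from Usp9x ENSMUST00000089302 at 529 to Usp49 at 24.3, and Sham and HF-HI means lie side by side for most members.

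Other parts of the ubiquitin system were counted in the same fit. Of 30 transcripts of other deubiquitinases, 1 was called, Otud1 of the OTU family, which was above the Sham median in all 8 HF-HI libraries (226 ± 15.8 in Sham, 267 ± 27.8 in HF-HI, limma unadjusted p = 0.00473, adjusted p = 0.369). Of 19 transcripts of Usp cofactors, 2 were higher and 1 lower. The higher ones, Atxn7 and Atxn7l3, encode subunits of the SAGA module that holds Usp22, and Stam, a partner of Usp8, was the lower one. Usp22 itself was not called, at a log2 difference of −0.06 summed per gene (voom unadjusted p = 0.187). Eny2, another cofactor in the list, was also at −0.06 (voom unadjusted p = 0.335). The called transcript of Atxn7l3 had 291 ± 48.1 in Sham and 348 ± 41.1 in HF-HI (limma unadjusted p = 0.0202, adjusted p = 0.483), while the sum over its 4 listed transcripts differed by 0.01 on the log2 scale (voom unadjusted p = 0.843). Of 17 transcripts of Usp7 partners and substrates only Ppm1g was called, higher. Of 36 transcripts of E1 and E2 enzymes 1 was higher and 2 were lower. The higher one and 1 of the lower ones were both of Ube2m, with log2 ratios of 0.32 (ENSMUST00000165394) and −1.40 (ENSMUST00000005714). The sum over the 3 listed transcripts of Ube2m differed by −0.14 on the log2 scale (voom unadjusted p = 0.0656, adjusted p = 0.573). Summed per gene in voom, where the background was 9.44%, 2 of 24 other deubiquitinases were called (Otud1 higher, Brcc3 lower), 2 of 13 cofactors (Atxn7 higher, Stam2 lower), 1 of 12 Usp7 partners and substrates (Dnmt1, lower) and 1 of 28 E1 and E2 enzymes (Ube2d3, lower). The transcript counts stand against the background of 8.83%, no transcript in any of these lists passed the adjusted threshold, and the list medians lay between −0.017 and −0.0041 in VSD.

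Depth differed between the groups. Reads recovered in the listed transcripts numbered 5798810 to 10582858 in Sham and 3496103 to 8666307 in HF-HI, and the log2 size factor differed by −0.55 (exact two-sided permutation p = 0.0280). With the log2 size factor as a covariate, 2 members (3.85%) were called, against 5.14% of all transcripts, and 1 of them was among the 5 called without it. HF-HI replicate 2 stood apart on the first principal component, at 12.6 against −3.35 to 0.72 for the other libraries, and without it 6 members were called, against 8.69% of all transcripts. The markers of cortex were present, with summed neuronal markers at 35669 to 38126 normalized counts in Sham and 36809 to 40542 in HF-HI. In limma on all libraries, 1 of 13 marker transcripts for neurons was called higher (Snap25), against 4.94% of all transcripts. Called lower were 1 of 9 for astrocytes (Aldoc), 1 of 5 for microglia (P2ry12) and 2 of 9 for striatum (Penk, Ppp1r1b), against 3.9%. For oligodendrocytes, endothelium and choroid plexus none was called, although the summed choroid plexus markers varied from 1972 to 11212 in Sham, against 2018 to 13832 in HF-HI. Drd2, Pecam1, Folr1 and Kcnj13 were not among the listed transcripts. Because depth differed with group, the covariate fit cannot fully tell their parts in the Usp values apart. The part of these markers in the Usp values was not tested.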

How the data were processed

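Total RNA from cortex was sequenced in 7 Sham and 8 HF-HI libraries. According to the study's methods the authors aligned reads to mm10 with STAR, estimated counts per transcript with eXpress and normalized them with DESeq2. The annotation release is not given in the sources used here. The deposited values are variance-stabilized values on a log2 scale for 10370 transcripts, with a lowest mean of 107.9 normalized counts, so low transcripts were not analysed here. Library kits marked strand, and the counting of strand is not given in the sources used here.

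The deposited log2 values were inverted from the shared value of a count of 0 (9.81) to normalized counts, and 100.0% came out as whole counts within 0.1. Names, types and exons came from GENCODE M21, in which 10241 transcripts had an entry and 129 did not. Sequences were read from the GRCm38 transcripts of that release. Of 56 protein-coding Usp genes in it, 17 had no listed transcript and were not analysed here.

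HF-HI was compared with Sham in limma 3.58.1 (R 4.3.3), with group as the only term, eBayes with trend, two-sided, and Benjamini-Hochberg adjustment over all transcripts at the study's threshold of 0.1. An unadjusted p under 0.05 is named a call. Usp7 was also tested by exact permutation of the libraries over 7 values (the VSD and the share of each transcript, and the sum). No count model other than limma's voom was fitted, and the study's DESeq2 test was not rerun. The code was tested on simulated data.

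The members, roles and lists were chosen with earlier results of these data known. Transcripts were named when they belonged to Usp7, were called, had the 3 largest differences in either direction or the 3 highest or lowest levels per kb, had a called sister transcript of opposite sign, or encoded Usp14, Usp5, Usp8, Usp9x, Usp46, Usp12, Usp2, Usp30, Usp22, Usp33, Usp48 or Usp11. Usp16, Usp29, Usp20 ENSMUST00000170476 and all genes of the other lists were named after their values were seen. Alternatives changed the variance prior, scaling, filter, depth covariate, replicate block, value scale, test, feature and libraries. A further list of genes is not reported here.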

Additional observations from a re-analysis of the deposited data

Results flagged for a closer look

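In 4 of the 54 sets of libraries examined, each being the values of a named transcript in 1 group, a library lay farther from its neighbours than Dixon's 95% critical value allows, and chance alone gives about 1 in 20. Usp11 had 534 normalized counts in Sham replicate 5, the lowest of Sham, where the next was 620.1. Usp14 ENSMUST00000116669 had 363 in Sham replicate 1, where the next Sham library had 455. Usp5 ENSMUST00000122110 had 355 in Sham replicate 5, the highest of Sham, where the next had 220.1. Usp46 had 881 in HF-HI replicate 4, the lowest of HF-HI, where the next had 1032. None of these transcripts was called between the groups.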

How the results depend on the processing

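The count of 5 Usp transcripts at an unadjusted p under 0.05 was 2 with the log2 size factor as a covariate (Usp7 ENSMUST00000161046 and Usp16) and 3 in voom on reads summed per gene (Usp2, Usp29, Usp54). Leaving out each library in turn gave 3 to 7, where 7.21% to 9.52% of all transcripts were called, with 3 without Sham replicate 7 (8.47% of all) or HF-HI replicate 8 (8.96%) and 7 without HF-HI replicate 1 (9.48%). The count past the adjusted threshold was 0 in every alternative. The median VSD difference over the members was −0.0043 over all libraries. It turned to 0.0009 with depth as a covariate and to 0.0011 with a filter at a mean of 200 normalized counts. On other scales it was −0.0176 for log2 of normalized counts plus 1 and 0.0040 in voom. Same-numbered libraries did not deviate together (correlations from −0.138 to 0.0905, with 1 of 7 numbers matching best with itself), and with a replicate block 4 members (7.69%) were called, against 8.59% of all transcripts, namely Usp2, Usp33, Usp7 ENSMUST00000161046 and Usp9x, of which 3 are among the 5. Without the 3 shallowest libraries (HF-HI replicates 2, 4 and 7), an alternative chosen after seeing the data, 7 members (13.5%) were called, against 6.33% of all transcripts, 2 of them among the 5. With the block Usp7 ENSMUST00000160405 and Usp54 lost their calls, at VSD differences of 0.16 and 0.04. Over the 30 named transcripts, 628 values kept sign and side of 0.05, 36 turned sign without a call on either side, 30 lost the call and 19 gained one, and no called value changed sign. Depth limits counting precision most in HF-HI, which had the shallowest libraries.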
